A study of Mus musculus with 10 samples.

Results

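The genes described here are 8 genes that mark excitatory neurons of the cortex and its relatives: the transcription factor genes Tbr1, Fezf2, Cux2, Neurod2, Neurod6 and Mef2c, and the effector genes Nrn1 and Arpp21. They were taken by name, through the 166 probe sets of the array that carry the symbol of one of them and of no other gene, out of 1256831 probe sets in all. All 8 were among the 16367 genes tested, and 154 of their 166 probe sets lay above the intensity filter, set at 4.94 (log2), which is the median probe set. The arrays measured RNA of the amygdala of mice aged 3 months. One group was wild type on the C57BL/6 background, and the other lacked neuropsin, a secreted serine protease encoded by Klk8 (labelled Neuropsin-/-, backcrossed to C57BL/6 for 12 generations). Each genotype had 5 arrays, read from the design text as 5 separate pools of 3 animals out of 15. Neither group received a treatment, per the labels, and the knockout is constitutive as far as the labels say, with the deleted exons not named. The values are log2 expression values made by RMA, and a gene level is the mean of its probe sets above the filter.

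Excitatory neurons of the cortex, the hippocampus and the lateral and basolateral amygdala descend from the embryonic pallium and share a set of transcription factors that stays on in the adult. Tbr1, a T-box factor, is known from early-born deep-layer neurons, Fezf2, a zinc finger factor, from neurons that project below the cortex, and Cux2, a homeodomain factor, from upper-layer neurons. Neurod2 and Neurod6 are basic helix-loop-helix factors of the same lineage that bind E-boxes, and Mef2c is a MADS-box factor that limits the number of excitatory synapses. Nrn1 encodes neuritin, a small membrane-anchored protein induced by activity that promotes neurite growth. Arpp21 encodes a cAMP-regulated phosphoprotein that binds RNA, is abundant in cortical and in striatal neurons, and carries a gene for microRNA miR-128 within it. Because Arpp21 and Mef2c are not restricted to excitatory neurons, the 8 genes are described by name and not as a measure of one cell type. Amygdala is a mixed tissue, and in such bulk samples fewer cells of a type and less RNA per cell cannot be told apart.

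The upstream sequences below are shown because known motifs of 4 of the factors (Mef2c, Neurod2, Neurod6 and Tbr1) were searched for. Motifs of Cux2 and Fezf2 were not searched. The microRNA inside Arpp21 is shown because the array holds no probe set named for it. The sequences come from RefSeq (build GRCm38.p6), which held 18 upstream windows for 7 of the 8 genes. Nrn1 had none. In each line the capitals mark the motif within the 250 bases before an annotated transcript start. The motifs searched on both strands were the MEF2 consensus, the NeuroD E-boxes CAGATG and CATATG, and the T-box element AGGTGTGA. The MEF2 match of Arpp21 was shared by 3 of its 9 windows, which overlap.
Arpp21, MEF2, chr9:112187971-112188000, minus strand: aattcagttgTTAATTTTAGctccttgcgt
Arpp21, E-box, chr9:112233408-112233437, minus strand: ccaccctttcctCATCTGccttggaaccca
Arpp21, E-box, chr9:112217307-112217336, minus strand: tgccatccacagCAGATGcttcatgacgga
Mef2c, E-box, chr13:83503922-83503951, plus strand: aactttttatacCATATGaaagcaatttca
Mef2c, E-box, chr13:83573357-83573379, plus strand: aatgcCAGATGgtgattgaaggg
Cux2, E-box, chr5:122047887-122047916, minus strand: gggaggggggctCATCTGaatcgatataaa
Neurod2, E-box, chr11:98329746-98329775, minus strand: agtagagagtgaCAGATGgcggcgggtccc
Neurod2, E-box, chr11:98329646-98329674, minus strand: acgtgccaagccCATATGgcctggcatag
miR-128-3p, chr9:112118644-112118664, minus strand, seed (bases 2 to 8) in capitals: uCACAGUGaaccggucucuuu

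Among all 32851 upstream windows of the table, the MEF2 consensus was present in 2.92%, CAGATG in 14.4%, CATATG in 3.46% and AGGTGTGA in 1.12%. Of the 18 member windows 3, 5, 2 and 0 held them, so E-boxes were found upstream of Arpp21, Mef2c, Cux2 and Neurod2. A match is a run of letters and not a shown binding site.

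Klk8 itself checked the genotype labels only in part. Its level over the 5 probe sets above the filter was 6.08, 6.21, 5.87, 6.28 and 6.65 on wild-type arrays 1 to 5 and 5.77, 5.40, 6.10, 6.04 and 5.85 on knockout arrays 1 to 5. The groups overlapped, with a difference of -0.39 (SE 0.15, exact permutation p = 0.0476, two-sided, limma adjusted p = 0.693). Probe sets that lie outside the deletion would not show it, and which ones do is not known here. On the first principal component of all gene levels (35.5% of the variance) wild-type arrays 4 and 5 stood apart at 20.5 and 23.5, the other 8 arrays lying between -14.2 and 7.45, so results that rest on those arrays are given with and without them. The p-values measure the spread between these pools.

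None of the 8 genes changed between the genotypes (limma, Benjamini-Hochberg adjusted over all 16367 genes, threshold 0.05), and their adjusted p-values were 0.693 to 0.950. All 8 gene levels were nevertheless higher on average in the knockout, by 0.03 to 0.30 on the log2 scale with a median of 0.19, beside a median of 0.00 and 49.3% of genes above 0 over all genes tested. Without wild-type arrays 4 and 5 there were 7 of the 8, where 34.1% of all genes were above 0. At an unadjusted limma p under 0.05 there were 4 members, Arpp21, Nrn1, Mef2c and Fezf2, all higher in the knockout. The background of that count was 6.98% of all genes in either direction, 2.84% higher and 4.14% lower in the knockout. After adjustment 0.0244% of genes passed, 0.00611% with the knockout higher. The members were chosen with earlier results of these data known, so their counts beside those of all genes are descriptions. Since the 8 genes share the same 10 arrays, they are not independent of each other, and the count of 4 depended on single arrays. Across settings with all arrays it was 3 to 5. When medians of probe sets stood for the genes, Nrn1 and Fezf2 left it and Neurod2 entered. It was 2 with wild-type array 1 left out or with knockout array 5 left out, and 1 when either array 4 was left out. Leaving out wild-type arrays 4 and 5 together gave 2, Arpp21 (0.18) and Neurod2 (0.22), with unadjusted limma p-values of 0.0200 and 0.0273, where 11.2% of all genes had such a p.

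**Figure D1:**
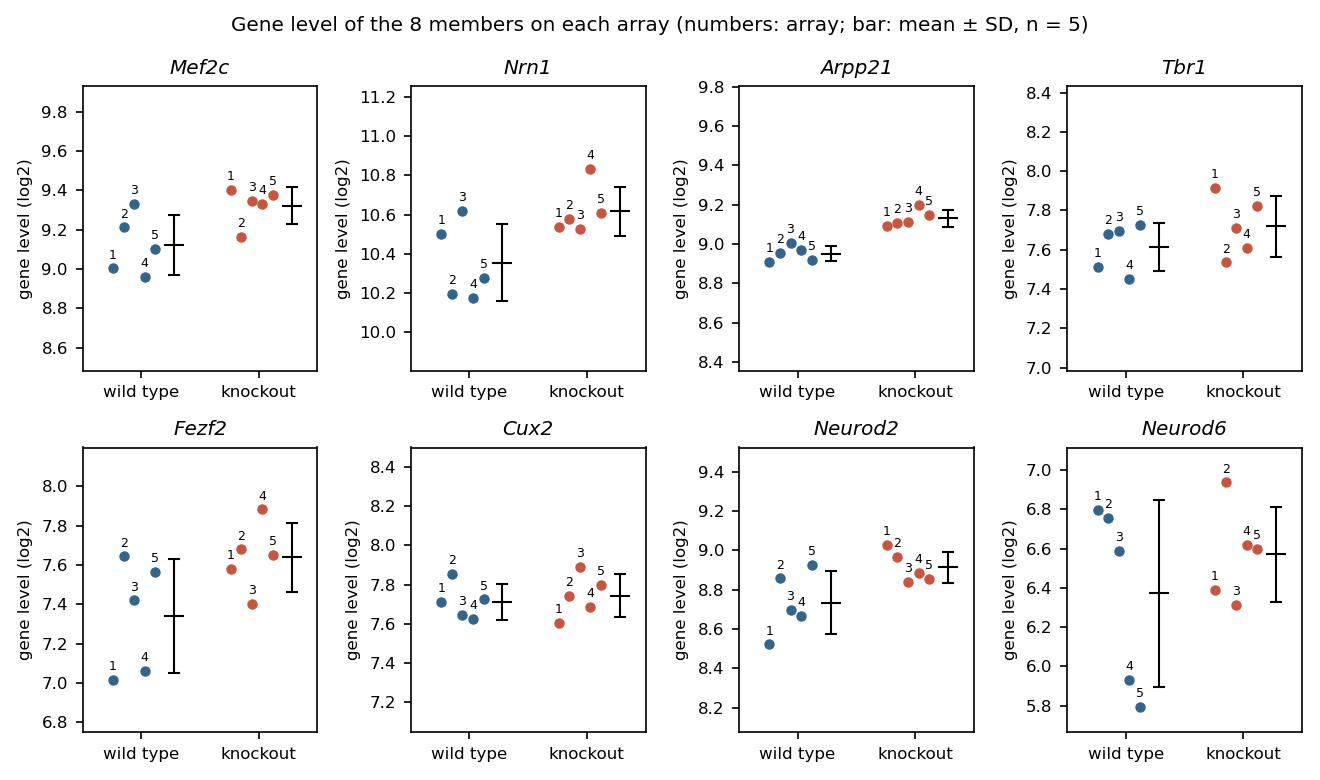
Gene level (log2, vertical axis) of each of the 8 genes on the 5 wild-type and 5 knockout arrays, with the array number at each point and the mean ± SD (n = 5) beside it; every panel spans the same range of log2 units. Arpp21 is the tightest gene and the one whose groups do not overlap, and Neurod6 spreads most, with wild-type arrays 4 and 5 at 5.93 and 5.79.

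Among the factors of layer identity, Tbr1 was at 7.51, 7.68, 7.69, 7.45 and 7.73 on wild-type arrays 1 to 5 and at 7.92, 7.54, 7.71, 7.61 and 7.82 on knockout arrays 1 to 5. The highest array was a knockout and the lowest a wild type, but the groups overlapped between 7.54 and 7.73. The difference was 0.11 (SE 0.09, 95% interval -0.09 to 0.30, adjusted p = 0.834), and it was 0.06 without knockout array 1 and 0.07 without wild-type array 4. Single probe sets of Tbr1 went both ways, 13 higher and 7 lower of 20 above the filter, from -0.44 to 0.60.

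Fezf2 was at 7.01, 7.64, 7.42, 7.06 and 7.56 on wild-type arrays 1 to 5 and at 7.58, 7.68, 7.40, 7.88 and 7.65 on knockout arrays 1 to 5. Wild-type arrays 1 and 4 lay well below the other 8 arrays, which were all between 7.40 and 7.88. The wild-type mean was 7.34 ± 0.29 and the knockout mean 7.64 ± 0.17 (SD, n = 5 each), which differ by 0.30 (SE 0.13, unadjusted p = 0.0362, adjusted p = 0.693, exact permutation p = 0.0873). With the median over its probe sets in place of the mean the difference of Fezf2 was 0.03. Of 9 probe sets above the filter 8 were higher in the knockout, and probe set 4522163 was one of 4 member probe sets whose groups did not overlap, with wild-type arrays between 8.18 and 8.88 and knockout arrays between 8.90 and 9.43.

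Cux2, the upper-layer factor, showed the smallest difference of the 8. Its levels ran from 7.62 to 7.86 in wild type (median 7.71) and from 7.60 to 7.89 in the knockout (median 7.74), so the groups covered the same range. The difference was 0.03 (SE 0.08, 95% interval -0.13 to 0.20, adjusted p = 0.950), and the upper end of that interval is as large as the difference of Mef2c. Without knockout array 3 the sign turned, at -0.01. Of 35 probe sets 22 were higher and 13 lower, all within -0.21 to 0.30.

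The helix-loop-helix genes Neurod2 and Neurod6 differed from each other in how they varied. Neurod2 was at 8.52, 8.86, 8.70, 8.67 and 8.92 on wild-type arrays 1 to 5 and at 9.03, 8.97, 8.84, 8.89 and 8.85 on knockout arrays 1 to 5. The difference was 0.18 (SE 0.09, 95% interval 0.00 to 0.36, unadjusted p = 0.0529, adjusted p = 0.716). It was 0.32 when the median of its 4 probe sets stood for the gene. That median is the mean of the middle-level probe sets 4741421 and 5529046, so 5529046 weighs more in it. Most of the difference of Neurod2 came from that 1 probe set of the 4. Probe set 5529046 was at 7.53, 8.12, 7.86, 7.54 and 7.92 in wild type and at 8.26, 8.61, 8.22, 8.17 and 8.23 in the knockout, a difference of 0.50 (SE 0.17, adjusted p = 0.793, limma) without overlap. The brightest one, 5520173, differed by -0.04 (SE 0.16).

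Neurod6 was at 6.80, 6.76, 6.59, 5.93 and 5.79 on wild-type arrays 1 to 5 and at 6.39, 6.94, 6.31, 6.62 and 6.60 on knockout arrays 1 to 5. Wild-type arrays 1 to 3 lay within the knockout range, and wild-type arrays 4 and 5 lay below every other array. The difference was 0.20 (SE 0.19, adjusted p = 0.856) with all arrays and -0.14 (SE 0.13) without those 2, so its direction rests on them. Neurod6 varied more within a genotype than 98.9% of genes, with a within-genotype SD of 0.38 against a median of 0.15 over all genes. Its level rests on 4 probe sets, and with the stricter filter fewer than 3 were left, so the gene was not tested there.

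Mef2c was at 9.003, 9.21, 9.33, 8.96 and 9.10 on wild-type arrays 1 to 5 and at 9.40, 9.16, 9.35, 9.33 and 9.38 on knockout arrays 1 to 5. All knockout arrays except array 2 were at 9.33 or above, a level that among the wild-type arrays was reached by array 3. The difference was 0.20 with an SE of 0.09 (95% interval 0.02 to 0.38, unadjusted p = 0.0339, adjusted p = 0.693, exact permutation p = 0.0556). It was 0.30 when the gene level was the median of the probe sets, and 0.14 (SE 0.09) without wild-type arrays 4 and 5. Most single probe sets shared its direction. Of 33 probe sets above the filter 31 were higher in the knockout, with a median of 0.19 and a range of -0.35 to 0.61, while among the 3927 genes with at least 20 such probe sets 3.90% had at least 90% of them higher. Its probe set of smallest p, 5604938, differed by 0.61 (SE 0.18, unadjusted p = 0.00542, adjusted p = 0.774), and 4767959 differed most in the other direction, by -0.35 (SE 0.24).

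Nrn1, the neuritin gene, was at 10.50, 10.19, 10.62, 10.18 and 10.28 on wild-type arrays 1 to 5 and at 10.54, 10.58, 10.53, 10.83 and 10.61 on knockout arrays 1 to 5. Wild-type array 3 reached into the knockout range, the other 4 wild-type arrays lay below it, and knockout array 4 was the highest of all. The wild-type mean was 10.35 ± 0.20 and the knockout mean 10.62 ± 0.12 (SD, n = 5 each), which differ by 0.26 (SE 0.10, 1.20-fold, unadjusted p = 0.0194, adjusted p = 0.693, exact permutation p = 0.0635). All 6 probe sets were higher in the knockout, by 0.10 to 0.47, and none of them changed on its own. Probe set 4930468 had the smallest p of the 6 (0.47, SE 0.23, unadjusted p = 0.0661). The difference of Nrn1 was 0.18 without wild-type arrays 4 and 5.

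Arpp21 was the one member whose groups did not overlap. It was at 8.91, 8.96, 9.004, 8.97 and 8.92 on wild-type arrays 1 to 5 and at 9.09, 9.11, 9.11, 9.20 and 9.15 on knockout arrays 1 to 5. Every knockout array was above every wild-type array, which was so in 1.55% of all genes in either direction and in 0.923% with the knockout above. It was also the one without wild-type arrays 4 and 5, where 7.99% of all genes did not overlap. The wild-type mean was 8.95 ± 0.04 and the knockout mean 9.13 ± 0.04 (SD, n = 5 each), which differ by 0.18 (SE 0.06, 1.13-fold). Its unadjusted limma p was 0.0133 and its adjusted p 0.693. The exact permutation p was 0.00794, and no split of 10 arrays into 5 and 5 can give a smaller one. The call was the same in all 21 other settings tried, where the difference lay between 0.16 and 0.25 and the adjusted p between 0.262 and 0.925. With wild-type arrays 4 and 5 left out it was 0.18 (SE 0.06).

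Arpp21 varied least of the 8 from array to array. Its within-genotype SD of 0.04 was at percentile 0.116 of all genes, where those of the other 7 members lay between percentiles 16.5 and 98.9. Its level is a mean of 43 probe sets, against 4 to 35 in the other members, and a mean over more probe sets tends to vary less. The part of that number in its small SD was not tested. The limma fit draws such a small SD towards the typical one, which is why its SE of 0.06 exceeds what its own spread would give. Of its 43 probe sets above the filter 38 were higher in the knockout, with a median of 0.17 and a range of -0.16 to 0.57, and 15.3% of genes with at least 20 probe sets had at least 80% of them higher. Probe set 5488701 had the smallest p of those (0.45, SE 0.17, unadjusted p = 0.0187, adjusted p = 0.812), and 4780785, among the lower ones, differed by -0.16 (SE 0.14). At probe set 5212120 the wild-type arrays lay between 9.14 and 9.39 and the knockout arrays between 9.53 and 9.62, without overlap.

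Within Arpp21 the difference was larger at dim than at bright probe sets. The 22 dimmer probe sets had a median difference of 0.23, with 21 of them higher in the knockout, and the 21 brighter ones a median of 0.12, with 17 higher. Over the 43 probe sets the level and the difference were correlated at a Spearman rho of -0.587, as a description over probe sets that share the same 10 arrays. Among 3927 genes with at least 20 probe sets 0.891% had a lower rho, and the median was -0.08. In Mef2c the same rho was 0.21, with a median difference of 0.12 at its 17 dimmer and 0.26 at its 16 brighter probe sets. The brightness of a probe set and the place of its exon in the gene were not separated.

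**Figure D2:**
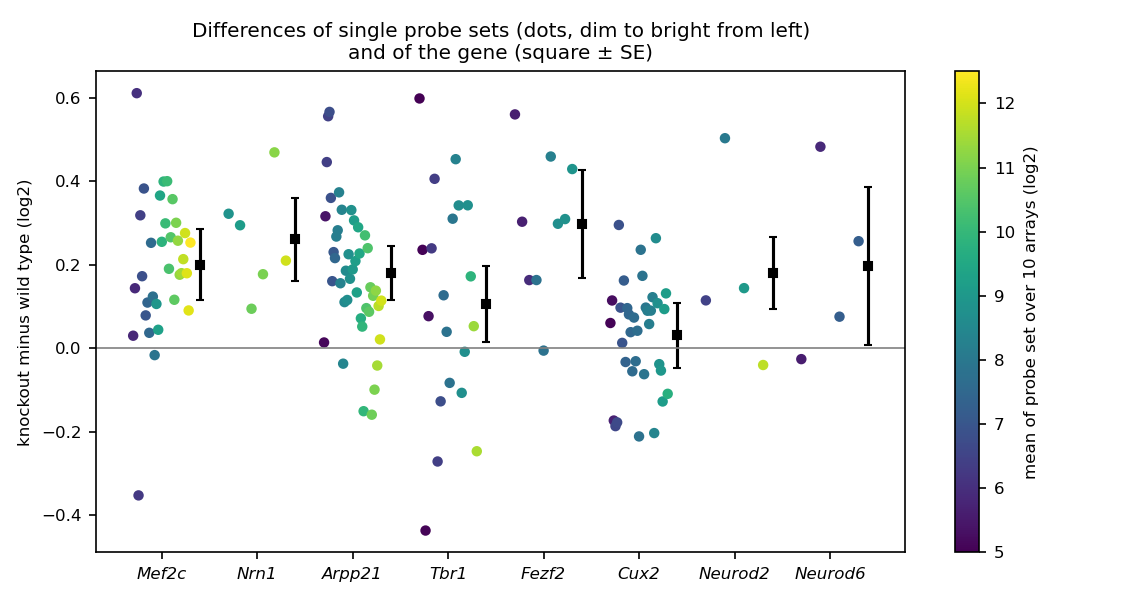
Difference between knockout and wild type (log2, vertical axis) at each of the 154 probe sets above the filter, in 1 column per gene and ordered from dim (left) to bright (right), coloured by the mean over the 10 arrays; the black square is the gene's difference ± SE. The dots of Mef2c, Nrn1, Arpp21 and Fezf2 lie mostly above 0, those of Tbr1 and Cux2 on both sides, and those of Arpp21 come closer to 0 as they become brighter.

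Over all members 124 of 154 probe sets above the filter were higher in the knockout, beside 54.2% of the probe sets of all genes tested and 50.3% of all probe sets above the filter. Without wild-type arrays 4 and 5 it was 111, beside 42.8% of the probe sets of genes tested. None changed after adjustment over the 628415 probe sets tested (smallest adjusted p = 0.774, limma), of which 0.00239% passed. At an unadjusted p under 0.05 there were 14, all of them higher in the knockout, beside 4.42% of the probe sets of all genes tested. Over all probe sets above the filter 5.97% had such a p, 3.33% with the knockout higher. They were 4 of Mef2c, 5 of Arpp21, 2 of Tbr1, 2 of Fezf2 and 1 of Neurod2, and none of Nrn1, Cux2 or Neurod6. The groups did not overlap at 4 of the 154, 1 each in Mef2c, Arpp21, Fezf2 and Neurod2, where the background was 1.06% of the probe sets of genes tested and 1.1% of all above the filter. With 3 wild-type arrays, arrays 4 and 5 left out, there were 17, where the background was 4.93% of the probe sets of genes tested. Probe sets of a gene share a transcript and the same arrays, and the members were chosen with earlier results of these data known. These counts are therefore descriptions.

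How well the probe sets of a gene moved together from array to array within a genotype differed among the members. For Fezf2 the correlation of a probe set with the mean of the others had a median of 0.61, for Nrn1 0.57 and for Mef2c 0.47, against 0.33 over all genes tested. For Arpp21 it was -0.05, a value at percentile 10.2 of all genes, and 19 of 43 probe sets had a value above 0. The array-to-array variation of Arpp21 within a genotype was thus not shared by its probe sets, although 38 of them were higher in the knockout. Tbr1 (0.34), Cux2 (0.39), Neurod6 (0.36) and Neurod2 (0.19) lay between.

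Array by array, no array was high or low in all members apart from 2. Wild-type array 4 was below the mean of the 10 arrays in all 8 genes, by 0.07 to 0.54, and knockout array 5 was above it in all 8, by 0.03 to 0.16. Wild-type array 1 held the lowest value of Arpp21, Fezf2 and Neurod2 but the highest wild-type value of Neurod6. Knockout array 4 was the highest array for Nrn1, Arpp21 and Fezf2, and knockout array 1 for Mef2c, Tbr1 and Neurod2.

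**Figure D3:**
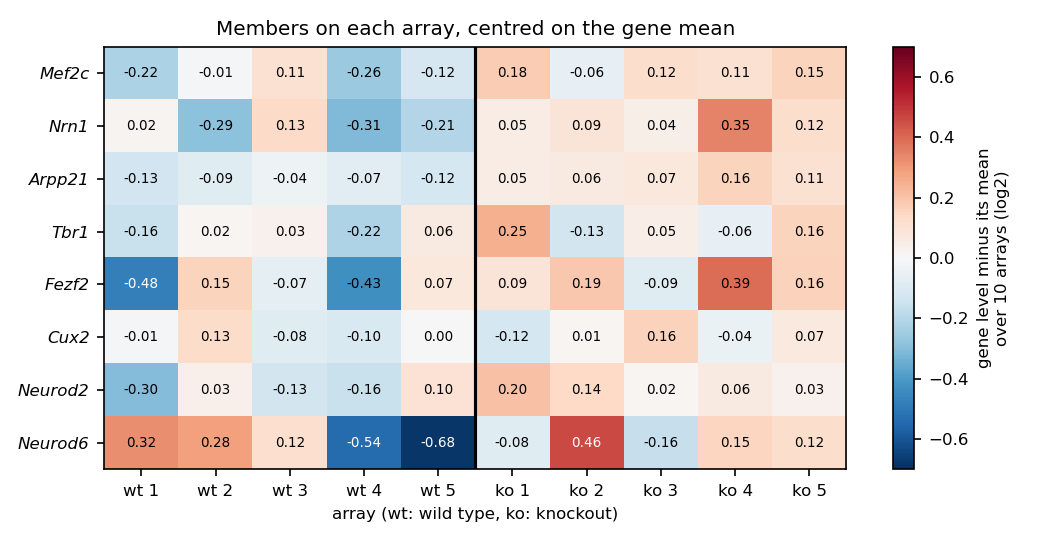
Gene level minus the gene's mean over the 10 arrays (log2; red above, blue below) for the 8 genes (rows) on the 5 wild-type and 5 knockout arrays (columns). Wild-type array 4 is blue in all rows and knockout array 5 red in all rows, and in Neurod6 wild-type arrays 4 and 5 are the lowest at -0.54 and -0.68.

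Correlation between members was computed for their 28 pairs over the 10 arrays, after each gene was centred within its genotype so that a shared difference between genotypes could not raise it. The median r was 0.114, beside 0.109 over all 133931161 pairs of genes tested. Among the 28 pairs 19 were above 0 (67.9%, against 58.0% of all pairs), and 7.14% were above 0.6, against 13.6%. The median of members moved with the setting and with single arrays, and all pairs of genes were not recomputed there. It was 0.363 with the stricter filter, which leaves out Neurod6, 0.236 with the median over probe sets, 0.211 with arrays centred on their medians and 0.211 without wild-type array 1. It turned to -0.02 without wild-type array 2 and to -0.06 without wild-type array 4, and it was 0.01 without wild-type arrays 4 and 5. With 5 arrays no r was computed within 1 genotype.

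Mef2c and Tbr1 were the pair that went together most, with r = 0.77 (exact permutation within genotype, two-sided, p = 0.00931) and Spearman rho = 0.67 (exact permutation p = 0.0410) over 10 arrays. After adjustment over the 28 pairs these p-values were 0.261 and 0.574. Without the 2 arrays farthest from the median of Mef2c r was 0.77, and without wild-type arrays 4 and 5 it was 0.80. Fezf2 and Neurod2 followed with r = 0.71 (exact permutation p = 0.0690, adjusted 0.895) and rho = 0.77 (exact permutation p = 0.0394, adjusted 0.574). Without wild-type arrays 1 and 4, the 2 arrays farthest from the median of Fezf2, their r was 0.31. Without wild-type arrays 4 and 5 it was 0.69. Leaving out the farthest arrays narrows the range of Fezf2, which by itself tends to lower r. Neurod2 and Neurod6 had r = -0.31 (exact permutation p = 0.485), but 0.05 without wild-type arrays 4 and 5 and 0.49 without arrays 1 and 5 of the wild type, so its sign rests on those arrays. Nrn1 and Neurod2 had the lowest value, r = -0.44 (exact permutation p = 0.309).

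Without the centring, which lets the difference between genotypes in, the median r was 0.308. At a permutation p under 0.05 there were then 6 pairs, led by Fezf2 and Neurod2 (r = 0.81, permutation p = 0.00512, adjusted 0.101; rho = 0.72, permutation p = 0.0235, adjusted 0.219) and Mef2c and Tbr1 (r = 0.79, permutation p = 0.00719, adjusted 0.101; rho = 0.81, permutation p = 0.00724, adjusted 0.203). None passed after adjustment over the 28 pairs. Uncentred values were not computed for all pairs of genes. The median of 0.308 and the count of 6 pairs thus have no background here and are descriptions.

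**Figure D4:**
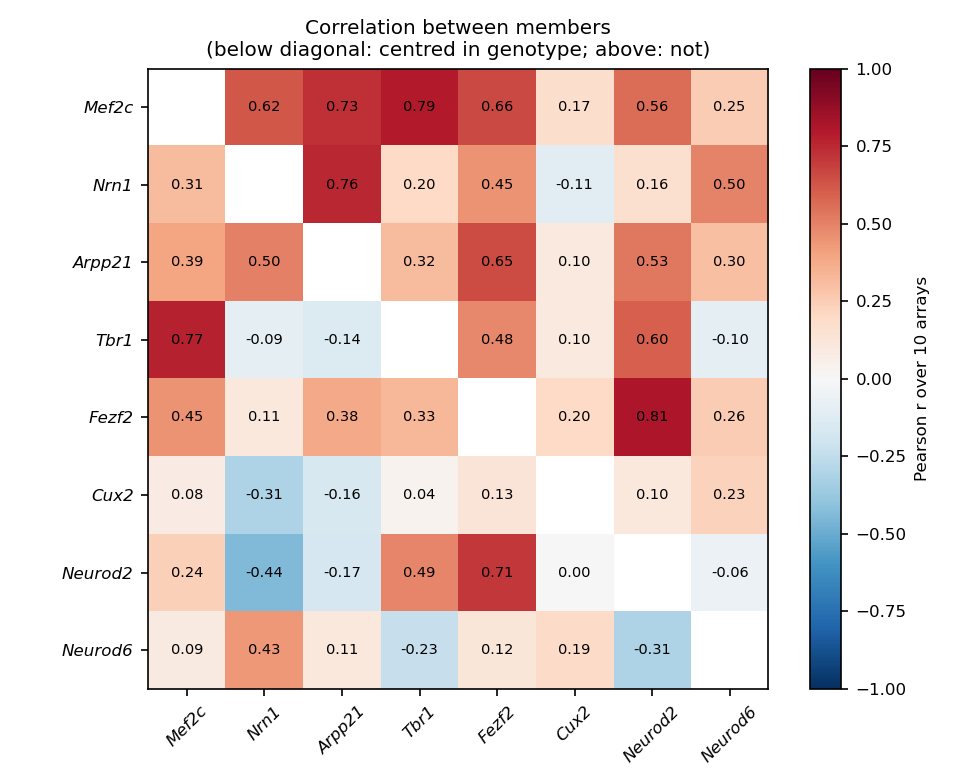
Pearson r over the 10 arrays for each pair of members (rows and columns; red positive, blue negative), centred within genotype below the diagonal and not centred above it. Below the diagonal Mef2c with Tbr1 (0.77) and Fezf2 with Neurod2 (0.71) stand out, and most other cells are pale.

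The genes most like each member were those of highest r over the same 10 centred values, a description, since the highest of 16367 values is large by selection. For Mef2c they were Cyria (r = 0.93), Mpp3 (0.92) and Gpr22 (0.92). Nrn1 went with Fam171a1 (0.97), Fam135b (0.94) and Stk16 (0.93), and Arpp21 with Samd7 (0.94), Zfp120 (0.92) and Vim (0.90). The highest r between members, 0.77, lay below all of these values. Tbr1 went with Dhrs11 (0.91), Selenbp1 (0.90) and Lipc (0.90), and Fezf2 with Ccn3 (0.96), Celsr1 (0.95) and Npr3 (0.93). Closest to Cux2 were Ncln (0.95), Snapc2 (0.95) and Taf7 (0.95), to Neurod2 Hmga2 (0.96), Sh3bp1 (0.93) and Kcna5 (0.93), and to Neurod6 Adcy3 (0.98), Snx5 (0.97) and Coq5 (0.97).

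Other genes of the same neurons were described from lists, which were also chosen with earlier results of these data known. None of the listed genes changed (limma, adjusted over all genes). As a background for the counts, 49.3% of all genes tested were higher in the knockout. An unadjusted limma p under 0.05 was found in 6.98% of them, 2.84% higher and 4.14% lower. Among 23 measured cortical and excitatory transcription factors besides the members 17 were higher in the knockout and 6 lower, with a median of 0.07, and 4 had an unadjusted p under 0.05. Those of smallest p were Nfib (0.30, SE 0.09) and Zbtb18 (0.30, SE 0.09), a zinc finger repressor. The mean of these 23 genes, centred over all arrays, was -0.02, 0.06, 0.01, -0.17 and -0.04 on wild-type arrays 1 to 5. On knockout arrays 1 to 5 that mean was 0.03, 0.03, 0.03, -0.01 and 0.08. The higher average of this list in the knockout thus rests in part on wild-type array 4. Among 20 genes of excitatory transmission and projection neurons 16 were higher, with a median of 0.10, and 5 had such a p, led by the cadherin gene Cdh13 (0.29, SE 0.08) and the copine gene Cpne6 (0.28, SE 0.09). The paralogues of the members went mostly the other way, 11 of 15 lower with a median of -0.05. Fezf1, the close relative of Fezf2 that is known from the hypothalamus, differed by -0.26 (SE 0.09), and Mef2a by -0.22 (SE 0.08). All 9 pan-neuronal genes were higher, by 0.03 to 0.11, with Stmn2 at 0.11 (SE 0.07) and Eno2 at 0.07 (SE 0.07). Their mean, centred over all arrays, was 0.10, -0.03, 0.05, -0.10 and -0.18 on wild-type arrays 1 to 5. It was -0.01, 0.08, 0.06, 0.01 and 0.03 on knockout arrays 1 to 5. The higher average of this list in the knockout thus rests on wild-type arrays 4 and 5.

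Markers of other cells and regions of the slice are given beside these genes, none of them changed after adjustment, and their part in the differences of the members was not tested. Their summed linear gene levels are given as ranges, and no marker was at 0. Over all genes tested 49.3% were higher in the knockout. An unadjusted limma p under 0.05 was found in 6.98% of all genes, 4.14% with the knockout lower. Hypothalamic markers were lower in 9 of 10, 6 with an unadjusted p under 0.05, and their sum ran from 874 to 1256 in wild type and from 685 to 803 in the knockout, without overlap, with Pmch at -1.88 (SE 0.39) and Oxt at -0.63 (SE 0.16). Of the myelin and oligodendrocyte markers 11 of 11 were lower, 3 with such a p, with overlapping sums of 3158 to 5573 and 3224 to 3985, led by Cldn11 (-0.28, SE 0.11) and Opalin (-0.40, SE 0.16). Striatal and intercalated cell markers were lower in 9 of 10, 2 with such a p, with overlapping sums of 3530 to 4775 and 2608 to 4251, with Isl1 at -0.35 (SE 0.15) and Penk at -0.32 (SE 0.15). The sum of the 8 members ran from 3131 to 3819 in wild type and from 3834 to 4262 in the knockout. Nrn1, the member of highest level, weighs most in that sum. The sum of the excitatory transmission and projection neuron genes ran from 11016 to 12296 and from 12306 to 12973, also without overlap. How often sums of other gene sets of the same sizes do not overlap was not computed. All of these sums are therefore descriptions. Sums of the other cortical factors, the paralogues and the pan-neuronal genes overlapped.

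Inhibitory neuron genes were lower in 9 of 12 (sums of 3706 to 4797 and 3635 to 4049; Pvalb at -0.32, SE 0.14, and Gad2 at -0.19, SE 0.11). Central and medial amygdala markers were lower in 7 of 9 (1267 to 1541 and 1256 to 1297; Dlk1 at -0.25, SE 0.09, and Zic1 at -0.22, SE 0.08). Lateral and basolateral amygdala markers, which include excitatory genes, were higher in 7 of 10 with a median of 0.02 (2193 to 2604 and 2347 to 2585; Etv1 at 0.24, SE 0.11, and Cyp26b1 at -0.11, SE 0.09). All 10 of these basolateral markers lay above the filter and were measured on every array. Their mean, centred over all arrays, was 0.11, 0.05, 0.07, -0.16 and -0.14 on wild-type arrays 1 to 5. It was 0.03, 0.03, 0.05, -0.07 and 0.02 on knockout arrays 1 to 5. The higher average of the basolateral markers in the knockout thus rests on wild-type arrays 4 and 5. Astrocyte genes were lower in 8 of 10 (5935 to 7281 and 6018 to 6465; Slc1a3 at 0.16, SE 0.09, and Aldoc at -0.07, SE 0.07). Microglial genes were lower in 9 of 9 (1434 to 1893 and 1491 to 1632; Cx3cr1 at -0.14, SE 0.09, and C1qb at -0.15, SE 0.14). Endothelial and vessel wall genes were lower in 6 of 9 (1148 to 1485 and 1197 to 1395; Cdh5 at -0.12, SE 0.10, and Slco1a4 at 0.14, SE 0.16). In these 6 lists the sums of the groups overlapped, and 1 inhibitory, 2 central or medial and 1 basolateral gene had an unadjusted p under 0.05, and none of the astrocyte, microglial or vessel genes.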

How the data were processed

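Amygdala RNA of 5 wild-type and 5 neuropsin knockout pools was measured on GeneChip Mouse Exon 1.0 ST arrays, after removal of ribosomal RNA, per the labels' protocols. Per the labels and processing notes, the authors deposited log2 values that RMA made from the probes of each probe set, run in Affymetrix Expression Console. For its version, its settings and the annotation build: not given in the sources used here. Array medians lay between 4.95 and 5.03, and 5 arrays a group limit the precision.

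The platform annotation named the probe sets: 318760 had 1 gene symbol, 6684 several and 931387 none. Symbols were updated through the RefSeq gene table (GRCm38.p6), which changed 4227. No batch is named in the labels. A gene level was the mean of the probe sets with 1 symbol above the filter, with at least 3 of them. Knockout minus wild type was fitted with limma version 3.58.1 (lmFit, eBayes) in R version 4.3.3, on all 10 arrays without covariates, two-sided, with Benjamini-Hochberg adjustment over all genes or probe sets. Intervals are 95% intervals of that fit. Exact permutation tests split the 10 arrays 5 to 5, and those of centred correlations permuted arrays within genotype (Python version 3.11.15). The permutation p-values of uncentred correlations came from random permutations of all 10 arrays without regard to genotype, and are not exact. The fit was tested on simulated data.

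Members and lists were chosen with earlier results of these data known. Of 164 listed genes in 13 lists 152 were measured, and 5 genes stand in more than 1 list. Named genes are the members, the 3 genes most alike to each and the 2 of smallest p in each list. Members and gene models with no proper name were left out of the genes most alike. Probe sets of smallest p, in each direction that occurred, are named for Mef2c, Nrn1, Arpp21 and Neurod2 and not for the other members. Probe sets 5212120, 4522163 and 5520173 were chosen after their values were seen, as were the comparisons of dim with bright probe sets and of probe sets with the rest of their gene. Same-numbered arrays of the 2 genotypes deviated together at r = 0.0817 to 0.412, not all over 0.1, and the labels name no pairing, so the number was used as a block in an alternative.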

Additional observations from a re-analysis of the deposited data

Results flagged for a closer look

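Nrn1 on knockout array 4 was at 10.83, far above the other 4 knockout arrays, which lay within 10.53 to 10.61. Of 16 groups tested in this way, 8 genes in 2 genotypes, this was the 1 that stood out, and chance gives about 1 in 20 groups. Without that array the difference of Nrn1 was 0.21 (SE 0.10).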

How the results depend on the processing

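No member passed the limma threshold in any of the settings tried, at the gene or the probe set level. The number of members with an unadjusted p under 0.05 was 4, and 1 to 4 when 1 array was left out. It was 5 with arrays centred on their medians, the stricter filter, the trended and robust prior or the first principal component, 3 with the median over probe sets or at least 1 probe set per gene, 4 with the other settings on all arrays and 2 without wild-type arrays 4 and 5. The differences of Neurod6 (-0.14 without wild-type arrays 4 and 5) and Cux2 (-0.0055 without knockout array 3) reversed, Cux2 otherwise reaching 0.0671, and the other 6 members kept their sign throughout. Member probe sets without overlap numbered 4, and 17 without wild-type arrays 4 and 5, an alternative chosen after seeing the data, where the share over the probe sets of genes tested was 4.93% in place of 1.06%. Over all genes 4 changed, 2 with at least 1 probe set per gene, 8 with the first principal component as a covariate and 2 to 6 with 1 array left out. Over all probe sets 15 changed, 3 after quantile normalization again, 2 without the filter, 66 with the stricter filter, 102 with the trended and robust prior, 3 without wild-type arrays 4 and 5, 2 to 9 with 1 array left out, and 0 when replicate number entered as a block. With that block the unadjusted count of members stayed at 4 and no member's call changed. Same-numbered arrays deviated together at r over 0.1 in 4 of 5 numbers and not in all, so the numbers were not treated as pairs, and whether they share a batch is not known. The median correlation between members was 0.363 with the stricter filter, which leaves out Neurod6, and -0.055 to 0.211 with 1 array left out. The cause of these shifts was not tested.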
